A study of Mus musculus with 7 samples.

Results

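The immunoglobulin heavy chain constant genes encode the part of the antibody that sets its class. In the deposited table of 752 genes, 7 rows carried the symbol of such a gene when matched by name ignoring case: Ighm, Ighg3, Ighg1, Ighg2b, Ighg2c, Ighe and Igha. RNA had been sequenced from B cells isolated on magnetic columns from spleens of 4 wild type and 3 Batf KO mice, both on the C57BL/6J strain background. All 7 cultures had received LPS, the bacterial ligand of TLR4, at 20 µg/mL together with the cytokine IL-4 at 20 ng/mL for 6 h. Neither the nature of the Batf allele nor the age and sex of the mice is given in the sources used here. The design text also mentions 2 replicates per sample, without saying of what. Each library was taken as 1 mouse, although the labels do not say whether the libraries came from separate cultures, so the p-values measure the spread between libraries.

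The table holds the genes that the authors had called between the same libraries, at a false discovery rate (FDR) of at most 0.0499 over 19734 genes. Each of the 7 genes therefore had to differ between the genotypes to be present, and their direction against the library total is given as a description. Ratios between the genes within a library are built from the same counts, so their p-values are not independent of that selection either. Effective library sizes, the read totals behind CPM (read counts scaled to a common library size, as deposited), ran from 24891094 to 44728937 reads in wild type and from 23675459 to 30844920 reads in Batf KO. Batf itself, the basic leucine zipper factor disrupted here, had a mean of 319 CPM in the wild type libraries (SD 11.2, n = 4) and of 66.5 CPM in those from Batf KO mice (SD 3.49, n = 3).

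A naive B cell transcribes Ighm, the constant gene nearest to its rearranged variable region, and makes IgM. On activation, cytokines open promoters in front of selected downstream constant genes. The resulting germline transcripts make the switch region in front of that gene accessible to recombination, and the DNA in between can then be deleted so that the downstream gene replaces Ighm. LPS with IL-4 is known to direct switching to IgG1 and IgE, LPS alone to IgG3 and IgG2b, interferon-gamma to IgG2c in C57BL/6 mice, and TGF-beta to IgA. Read counts per gene do not separate germline transcripts from transcripts of switched cells, and fewer cells of one isotype cannot be told apart from less RNA per cell.

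In the GENCODE M21 annotation of GRCm38 (the mm10 assembly), the 7 genes lie on the minus strand of chromosome 12, so the 5′ end of the locus has the highest coordinate. Ighm (ENSMUSG00000076617) occupies 113418558 to 113422730. It is followed by Ighg3 (ENSMUSG00000076615) at 113356224 to 113361232, whose start is 61.5 kb downstream of that of Ighm. Next come Ighg1 (ENSMUSG00000076614) at 113325240 to 113330523, Ighg2b (ENSMUSG00000076613) at 113302965 to 113307933 and Ighg2c (ENSMUSG00000076612) at 113285325 to 113288932. Ighe (ENSMUSG00000087642) at 113269260 to 113273248 and Igha (ENSMUSG00000095079) at 113254830 to 113260236 close the series, with the start of Igha 162 kb from that of Ighm. Ighd, the IgD gene annotated between Ighm and Ighg3, has no row in the table and therefore no value here.

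The 4 IgG genes are close copies, so whether their reads can be told apart bears on every value below. The first 60 bases of the first constant exon of each are shown in transcript direction from the GENCODE M21 transcripts, with capitals marking bases that differ from Ighg1 at the same position.
Ighg1 (chr12:113330464-113330523): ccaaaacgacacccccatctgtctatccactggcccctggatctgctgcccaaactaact
Ighg2b (chr12:113307874-113307933): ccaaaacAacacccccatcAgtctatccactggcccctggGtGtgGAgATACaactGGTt
Ighg2c (chr12:113288873-113288932): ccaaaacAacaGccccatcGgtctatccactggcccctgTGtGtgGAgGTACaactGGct
Ighg3 (chr12:113361173-113361232): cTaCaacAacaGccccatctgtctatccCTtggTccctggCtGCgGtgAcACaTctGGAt
In this stretch Ighg2b differed from Ighg1 at 13 positions, Ighg2c at 14 and Ighg3 at 18. Over the whole exon of 291 bases, Ighg1, Ighg2b and Ighg2c were pairwise 87.6% to 88.3% identical, and Ighg3 was 78.4% to 79.0% identical to each of them.

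The hinge exon, which encodes the flexible joint of the IgG heavy chain, is shown because its length as well as its sequence differs among the 4 genes. It is shown in capitals between the last 12 bases of the exon before it and the first 12 bases of the exon after it, and the coordinates are those of the hinge exon on the minus strand of GRCm38.
Ighg3 (chr12:113360529-113360576): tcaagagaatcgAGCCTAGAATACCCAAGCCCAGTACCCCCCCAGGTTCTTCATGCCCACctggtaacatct
Ighg1 (chr12:113329844-113329882): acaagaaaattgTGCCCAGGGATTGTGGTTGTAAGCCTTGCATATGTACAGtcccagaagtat
Ighg2b (chr12:113307261-113307326): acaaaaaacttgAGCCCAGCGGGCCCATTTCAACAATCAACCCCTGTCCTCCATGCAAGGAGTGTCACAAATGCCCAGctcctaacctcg
Ighg2c (chr12:113288263-113288325): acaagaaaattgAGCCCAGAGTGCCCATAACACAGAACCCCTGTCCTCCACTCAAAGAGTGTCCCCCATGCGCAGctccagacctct
The exon is 39 bases long in Ighg1, 48 in Ighg3, 63 in Ighg2c and 66 in Ighg2b.

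Across all annotated exons, few stretches were shared exactly. Of the distinct 50-base windows of each gene's transcripts, 5.49% of those of Ighg2c, 4.15% of those of Ighg2b, 1.58% of those of Ighg3 and 0.393% of those of Ighg1 also occurred in another immunoglobulin constant gene. For Ighg2b and Ighg2c the gene shared with most was the other of the pair. No 50-base window of Ighm, Ighe or Igha, and no 100-base window of any of the 7 genes, was found in another constant gene. How long the reads were, and how those with several matches were counted, is not given in these sources. Mismatches allowed in mapping were not considered.

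Transcripts of all 7 constant genes were less abundant in Batf KO, by 1.36-fold for Ighm and up to 122-fold, from pooled reads, for Igha, and in no gene did the groups overlap. Among the downstream genes, the fitted differences were smallest for the IL-4 isotypes Ighg1 and Ighe and largest for Ighg2b, Ighg2c and Igha. On limma's log2(CPM + 1) scale, which understates genes with few reads, the difference of Ighg3 (-1.99) exceeded that of Ighg2c (-1.60). All 7 passed edgeR's quasi-likelihood test at an adjusted p under 0.05 over the table, as did each lower gene in it, 48.9% of all rows, so nothing can be read from that number. Likewise the groups were separate, with Batf KO lower, in 48.1% of all rows. Adjusted over the 19734 genes the authors had tested, with genes outside the table set to p = 1, 5 of the 7 passed, against 0.867% of all genes. In the authors' deposited table, which lists 1.86% of the genes tested as lower, the 7 genes rank from 11 (Ighg2b) to 719 (Ighm) by p-value. The median log2 fold change of the 7 genes was -2.70, and that of all rows 0.31.

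**Figure D1:**
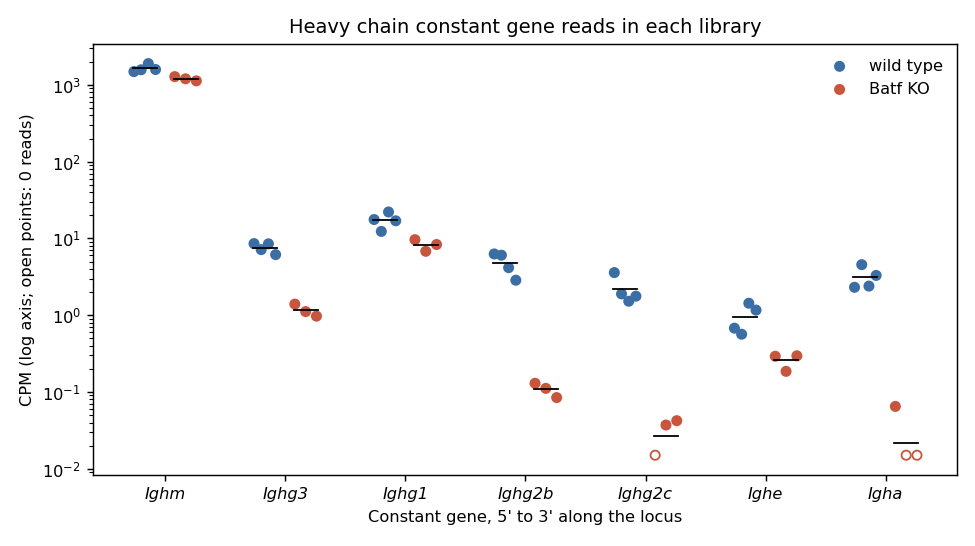
Level in CPM (log axis) of each constant gene in the 4 wild type (blue) and 3 Batf KO (red) libraries, in the order of the locus; each point is a library, black bars are group means and open points at the bottom are libraries with 0 reads. Ighm is at 1127 CPM or more in every library, and the Batf KO points lie lowest for Ighg2c and Igha, where 1 and 2 libraries had no read.

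Ighm, the constant gene of IgM, took the great majority of the reads. Its level was 1487, 1572, 1893 and 1583 CPM in wild type replicates 1 to 4 and 1280, 1199 and 1127 CPM in Batf KO replicates 1 to 3. The lowest wild type library lay above the highest Batf KO library. The log2 fold change was -0.44 (SE 0.09), with an edgeR adjusted p of 0.00216 over the table. Over the 19734 genes that p was 0.0568, which did not pass, whereas the authors' own test gave an FDR of 0.0418. The level in Batf KO was 73.6% of that in wild type.

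Ighg1, the constant gene of IgG1, was the most abundant of the downstream genes. It measured 17.6, 12.3, 22.1 and 17.0 CPM in wild type replicates 1 to 4 and 9.63, 6.79 and 8.32 CPM in Batf KO replicates 1 to 3. Wild type replicate 2 was the lowest of its group and stood closest to the Batf KO libraries. The log2 fold change was -1.06 (SE 0.21), with an edgeR adjusted p of 0.00177 over the table and 0.0464 over the 19734 genes.

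Ighe, the constant gene of IgE, was the rarest of the 7 in wild type. It measured 0.677, 0.565, 1.43 and 1.17 CPM in wild type replicates 1 to 4 and 0.292, 0.186 and 0.296 CPM in Batf KO, from 27, 17, 64 and 29 reads against 9, 5 and 7 reads. Wild type replicates 3 and 4 were higher than replicates 1 and 2, which lay nearer to the Batf KO libraries. The log2 fold change was -1.89 (SE 0.44), with an edgeR adjusted p of 0.00353 over the table. Over the 19734 genes that p was 0.0926, which did not pass, whereas the authors' own test gave an FDR of 0.0015. The log2 fold change was -1.26 against wild type replicates 1 and 2 alone and -2.33 against replicates 3 and 4 alone. In the sample titles, wild type replicates 1 and 2 carry numbers close to those of the Batf KO libraries, and replicates 3 and 4 higher ones. What these numbers stand for is not given.

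Ighg3, the constant gene of IgG3, measured 8.55, 7.14, 8.50 and 6.15 CPM in wild type replicates 1 to 4 and 1.39, 1.11 and 0.971 CPM in Batf KO replicates 1 to 3. Every Batf KO library was far below every wild type library, and the wild type libraries differed by at most 1.39-fold. Among the downstream genes this was the narrowest spread in wild type. The log2 fold change was -2.70 (SE 0.20), a 6.49-fold decrease (edgeR adjusted p = 1.99e-05).

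Ighg2b, the constant gene of IgG2b, measured 6.27, 6.05, 4.16 and 2.85 CPM in wild type replicates 1 to 4, from 250, 182, 186 and 71 reads. In Batf KO it had 4, 3 and 2 reads, which is 0.130, 0.111 and 0.0845 CPM. Wild type replicates 1 and 2 were the higher ones here, the reverse of Ighe. The log2 fold change was -5.41 (SE 0.44; edgeR adjusted p = 2.38e-05).

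Ighg2c, the constant gene of IgG2c, had 143, 57, 68 and 44 reads in wild type replicates 1 to 4, which is 3.59, 1.89, 1.52 and 1.77 CPM. In Batf KO it had 0, 1 and 1 reads. Replicate 1 stood above the other wild type libraries. The pooled reads per library size were 91.0-fold lower in Batf KO, with an exact 95% counting interval of 25.0 to 755. The fitted log2 fold change was -6.27 (SE 0.66; edgeR adjusted p = 8.41e-05), and -5.67 without Batf KO replicate 1, the library with no read.

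Igha, the constant gene of IgA and the last in the locus, had 92, 137, 107 and 82 reads in wild type replicates 1 to 4, which is 2.31, 4.55, 2.39 and 3.29 CPM. In Batf KO it had 2, 0 and 0 reads. Both reads in Batf KO were in replicate 1. The pooled difference was 122-fold with a counting interval of 33.6 to 1011. The fitted log2 fold change was -6.78 (SE 0.63; edgeR adjusted p = 4.66e-05). Without Batf KO replicate 1 the group had no read, and the fitted value of -9.63 is then set by the model's prior count. Counting intervals here and below cover counting error only.

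Position in the locus did not order these differences. Going downstream, the log2 fold change went from -0.44 at Ighm to -2.70 at Ighg3, back to -1.06 at Ighg1, down to -5.41 and -6.27 at Ighg2b and Ighg2c, back to -1.89 at Ighe and down to -6.78 at Igha. Ighe, whose start lies 149 kb from that of Ighm, between Ighg2c at 134 kb and Igha at 162 kb, thus had a much smaller difference than either neighbour. Ighg1 likewise lay between Ighg3 and Ighg2b with a smaller difference than both.

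**Figure D2:**
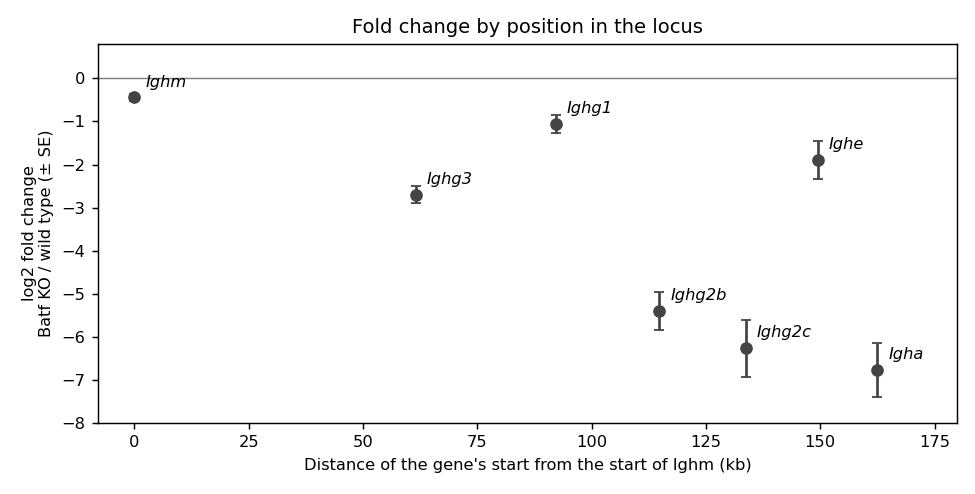
Fitted log2 fold change (Batf KO over wild type, bars ± SE) of each constant gene against the distance of its start from the start of Ighm, in kb. Ighg1 at -1.06 and Ighe at -1.89 sit above their neighbours on either side, and Igha at the far end is the lowest at -6.78.

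Levels of different genes were compared per kb of annotated exon, taking the union of exons in GENCODE M21, which need not be the annotation the authors counted on. In wild type, Ighm stood at 866 ± 94.4 CPM per kb (SD, n = 4), Ighg1 at 6.65 ± 1.54, Ighg3 at 3.02 ± 0.46, Ighg2b at 1.80 ± 0.61, Ighg2c at 1.65 ± 0.71, Igha at 1.18 ± 0.39 and Ighe at 0.605 ± 0.26. Each of the first 3 lay above the next gene in all 4 libraries with ranges that did not overlap. From Ighg2b down to Ighe the ranges of neighbours overlapped, so the order between neighbours is not resolved by these libraries. The range of Ighe (0.356 to 0.903) did lie below those of Ighg2b (1.07 to 2.34) and Ighg2c (1.15 to 2.71). In Batf KO the order was Ighm at 637 ± 40.6 CPM per kb (SD, n = 3), Ighg1 at 3.18 ± 0.55, Ighg3 at 0.462 ± 0.086, Ighe at 0.163 ± 0.039, Ighg2b at 0.0405 ± 0.0085, Ighg2c at 0.0199 ± 0.017 and Igha at 0.00810 ± 0.014. In Batf KO the range of Ighe lay above those of Ighg2b, Ighg2c and Igha. In wild type it lay below those of Ighg2b and Ighg2c and overlapped that of Igha. In wild type replicate 3 Ighe was slightly above Igha. Only the last 3 genes overlapped with a neighbour in Batf KO.

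Each isotype was next set against Ighm within the same library, a measure that does not depend on the library size. Reads of the 6 downstream genes together were 22.1 ± 2.77 per 1000 Ighm reads in wild type (SD, n = 4) and 8.16 ± 1.13 in Batf KO (SD, n = 3), and the groups did not overlap; this total was not tested. In each of the 6 genes the Batf KO libraries lay below every wild type library. The tests were exact two-sided permutation tests of the difference in means over the 35 ways to assign the 7 libraries to groups of 4 and 3, whose smallest possible p is 0.0286, adjusted over the 8 proportions tested in all. The edgeR fit with Ighm reads as library size served as an alternative.

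Relative to Ighm, Ighg3 had 5.75, 4.54, 4.49 and 3.88 reads per 1000 in wild type replicates 1 to 4 and 1.09, 0.929 and 0.862 in Batf KO replicates 1 to 3. The mean in Batf KO was 20.6% of that in wild type (exact permutation p = 0.0286, adjusted 0.0457). Ighg2b had 4.22, 3.85, 2.20 and 1.80 reads per 1000 in wild type and 0.101, 0.0929 and 0.0750 in Batf KO, or 2.98% of wild type. Ighg2c had 2.41, 1.20, 0.803 and 1.12 in wild type and 0, 0.0310 and 0.0375 in Batf KO, or 1.65%. Igha had 1.55, 2.90, 1.26 and 2.08 in wild type and 0.0507, 0 and 0 in Batf KO, or 0.867%. These 3 genes had the same exact permutation p of 0.0286 and adjusted p of 0.0457 as Ighg3. A count of 0, read as allowing 3 counts, allows up to 0.0760 reads of Ighg2c per 1000 Ighm reads in Batf KO replicate 1, and up to 0.0929 and 0.112 of Igha in replicates 2 and 3. The exact 95% intervals of these zeros reached 0.0934, 0.114 and 0.138.

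The IL-4 isotypes moved less against Ighm. Ighg1 had 11.8, 7.84, 11.7 and 10.7 reads per 1000 Ighm reads in wild type replicates 1 to 4 and 7.52, 5.67 and 7.38 in Batf KO replicates 1 to 3. Wild type replicate 2 was close to Batf KO replicates 1 and 3, and its 95% counting interval of 7.06 to 8.68 held both their values. The Batf KO mean was 65.2% of wild type, and the difference did not pass the test (exact permutation p = 0.0571, adjusted 0.0571). Ighe had 0.455, 0.359, 0.756 and 0.736 reads per 1000 in wild type and 0.228, 0.155 and 0.262 in Batf KO, or 37.3% of wild type, with the same exact permutation p of 0.0571. The Ighe difference of -0.36 reads per 1000 was -0.19 against wild type replicates 1 and 2 alone. With Ighm reads as library size, the edgeR fit across the table gave a log2 fold change of -0.62 for Ighg1 (adjusted p = 0.0108) and -1.43 for Ighe (adjusted p = 0.00688). Both passed there, but the adjustment ran only over rows that the authors had already called. The share of all rows passing in that fit is not given here, so nothing is read from the passing.

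**Figure D3:**
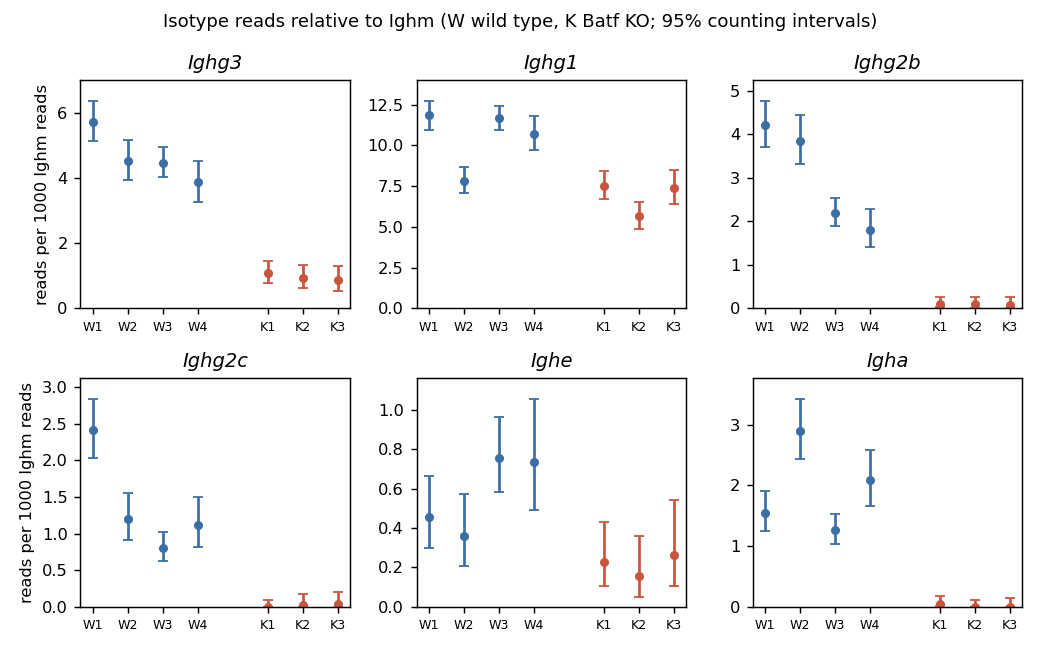
Reads of each downstream gene per 1000 Ighm reads in the same library, for wild type (W, blue) and Batf KO (K, red) replicates, with exact 95% counting intervals; each panel has its own scale. Batf KO libraries lie near 0 for Ighg2b, Ighg2c and Igha, whereas for Ighg1 they reach 7.52, just under wild type replicate 2 at 7.84.

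The make-up of the downstream reads differed accordingly. Ighg1 made up 45.1%, 37.9%, 55.1% and 52.7% of the reads of the 6 downstream genes in wild type replicates 1 to 4 and 83.7%, 82.4% and 85.7% in Batf KO replicates 1 to 3. The shares did not overlap, and the Batf KO libraries were closely alike at 83.9% ± 1.62 (SD, n = 3) against 47.7% ± 7.80 (SD, n = 4) in wild type (exact permutation p = 0.0286, adjusted 0.0457). The most deeply covered Batf KO library, replicate 1 with 355 downstream reads, had a 95% interval of 79.4% to 87.4%. Ighg3 was second in every library but held less in Batf KO, at 19.1% to 22.0% in wild type and 11.9% ± 1.77 (SD, n = 3) in Batf KO. Ighg2b, Ighg2c and Igha held 13.5%, 6.08% and 9.03% in wild type on average and 1.12%, 0.295% and 0.188% in Batf KO. The share of Ighe was 1.74% to 3.62% in wild type and 2.25% to 3.04% in Batf KO, and the groups overlapped.

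Ighe was also set against Ighg1, the isotype induced with it. It had 38.5, 45.8, 64.8 and 68.7 reads per 1000 Ighg1 reads in wild type replicates 1 to 4 and 30.3, 27.3 and 35.5 in Batf KO replicates 1 to 3. The Batf KO libraries were below wild type, but the difference did not pass (exact permutation p = 0.0571, adjusted 0.0571). With 9, 5 and 7 Ighe reads behind them, the Batf KO values had counting intervals that reached 58.3, 64.9 and 74.6, which overlapped the wild type range of 38.5 to 68.7.

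**Figure D4:**
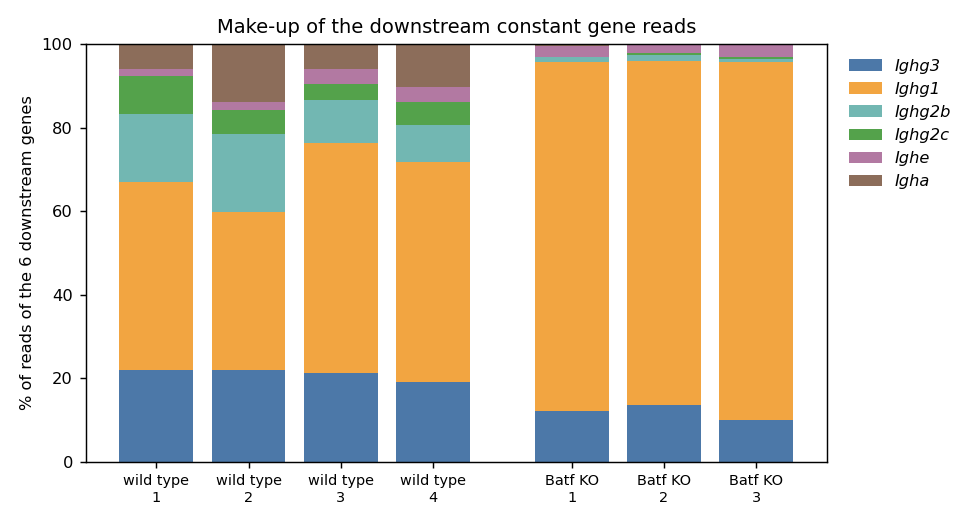
Share of each downstream gene in the reads of Ighg3, Ighg1, Ighg2b, Ighg2c, Ighe and Igha, in percent, for each library; the bars of the 4 wild type libraries are on the left and those of the 3 Batf KO libraries on the right. Ighg1 fills 37.9% to 55.1% of the wild type bars and 82.4% to 85.7% of the Batf KO bars.

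Wild type mice differed among themselves, and not in the same way for each isotype. The highest library exceeded the lowest by 1.27-fold for Ighm, 1.39-fold for Ighg3, 1.79-fold for Ighg1, 1.97-fold for Igha, 2.20-fold for Ighg2b, 2.36-fold for Ighg2c and 2.53-fold for Ighe. Replicate 2 had the most Igha and the least Ighg1 and Ighe. Replicate 1 had the most Ighg2c, and replicate 3 had the most Ighm, Ighg1 and Ighe together with the least Ighg2c. With 4 libraries no relation between isotypes was tested.

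For each gene, the closest patterns outside the heavy chain locus were sought among 645 genes with a mean of at least 1 CPM, as the root mean square difference of log2(CPM + 0.5) values centred over the 7 libraries. Ighm was closest to Cnih4 (0.0506) and Ubl7 (0.0623), and Ighg1 to Gm2a (0.169) and Uap1l1 (0.186). Ighg3 was closest to Batf itself (0.184), followed by Slamf6 (0.286). Ighe was nearest to Aff3 (0.115) and Clcn5 (0.150), and Ighg2c to Lrrk2 (0.267) and Pik3cg (0.283). Ighg2b and Igha shared their nearest genes, Insm1 (0.429 and 0.251) and Lat2 (0.496 and 0.327). The pseudocount compresses the differences of the genes with few reads, and all 7 libraries are shared by these comparisons, so likeness follows largely from a similar fold change.

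Among 63 annotated factors of germline constant gene transcription, 19 were in the table, 8 higher and 11 lower. The background is the 1.86% of all tested genes that the authors list as lower and the 1.95% that they list as higher. The median of their log2 fold changes was -0.51. Adjusted over the 19734 genes, 11 of the 19 passed in the edgeR fit, where 0.867% of all genes were called lower and 0.704% higher. Each of the 19 had to differ between the genotypes to be listed, and Batf, the disrupted gene itself, is among those that passed. Tbx21 encodes T-bet, which drives Ighg2c transcription in response to interferon-gamma. Its level was 2.33, 10.1, 3.76 and 1.25 CPM in wild type replicates 1 to 4 and 0.454, 0.186 and 0.465 CPM in Batf KO, and it did not pass over the 19734 genes (edgeR adjusted p = 0.0808). After Batf and Tbx21, the largest differences of the list were those of the repressor gene Nfil3 (log2 fold change -1.73), of Irf4, a partner of BATF on DNA, which was higher (1.12), of the repressor gene Bhlhe40 (-1.11) and of Bach2 (-0.86), a repressor of plasma cell differentiation. Each of these 4 passed over the 19734 genes, with edgeR adjusted p of at most 0.00163.

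Of 27 annotated receptors and signal transducers that direct the isotype, 7 were listed, 4 higher and 3 lower, and 6 of them passed over the 19734 genes, where 0.867% of all genes were called lower and 0.704% higher. Being listed already required a difference between the genotypes. Il4ra, the receptor chain that binds IL-4, averaged 229 CPM in wild type (SD 10.8, n = 4) and was lower in Batf KO at 138 CPM (SD 3.76, n = 3), with an edgeR adjusted p of 0.000759 over the 19734 genes. Tnfrsf13b, which encodes TACI, a receptor of the cytokines BAFF and APRIL, fell by 1.21 on the log2 scale. Tnfrsf13c, the gene of the BAFF receptor, rose by 0.73. Il21r fell by 0.52, and Il10ra and Ticam1 rose by 0.40 and 0.36. Cd40, the receptor of the T cell help signal, rose by 0.33, the smallest difference of the 7. Il10ra did not pass over the 19734 genes (edgeR adjusted p = 0.175).

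Of 183 annotated heavy chain variable genes and pseudogenes, the table lists 14, which had to differ to be listed. Of all tested genes, the authors list 1.86% as lower and 1.95% as higher. All 14 were lower, with a median log2 fold change of -0.94 and a summed level of 44.9 to 60.8 CPM in wild type and 23.9 to 32.3 CPM in Batf KO. Of the 14, 1 passed over the 19734 genes (Ighv3-6, edgeR adjusted p = 0.0223), where 0.867% of all genes were called lower.

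Markers of plasma cells, which carry very large amounts of heavy chain RNA, were considered beside these values. The background for this and the other marker lists is the 1.86% of all tested genes listed as lower and the 1.95% listed as higher. Of 16, 4 were in the table, 3 lower (Sec11c, Prdm1 and Derl3) and 1 higher (Slamf7). Their summed levels were 190 to 231 CPM in wild type and 189 to 218 CPM in Batf KO. Opposite changes offset each other in these sums. Sec11c averaged 82.9 CPM in wild type and 38.7 CPM in Batf KO, and Slamf7 97.3 CPM and 152 CPM. Prdm1, which encodes the plasma cell regulator Blimp-1, averaged 10.2 CPM in the wild type libraries (SD 2.57, n = 4) against 6.11 CPM in Batf KO (SD 0.81, n = 3). Prdm1 did not pass over the 19734 genes (edgeR adjusted p = 0.243). Of the 4 markers only Sec11c did (edgeR adjusted p = 0.000504), where 0.867% of all genes were called lower. Of 9 markers of B1 and marginal zone B cells, 4 were listed (3 higher, 1 lower), of 14 T and NK markers 1 (Cd8b1, higher), and of 13 myeloid markers 1 (Zbtb46, higher). The summed levels of the B1 and marginal zone markers were 134 to 205 CPM in wild type and 154 to 199 CPM in Batf KO. Here too opposite changes offset each other. Zbtb32 averaged 75.3 CPM in wild type and 33.8 CPM in Batf KO, and Plscr1 69.2 CPM and 116 CPM. Cd8b1 ranged from 1.48 to 2.59 CPM in wild type and from 5.24 to 7.42 CPM in Batf KO, and Zbtb46 from 47.4 to 65.6 CPM and from 73.6 to 89.6 CPM. Of 12 B cell markers, 3 were listed and all 3 were higher in Batf KO, among them Ms4a1 (CD20) at 533 CPM or more in every library. In the edgeR fit over the 19734 genes, Ms4a1, Blk, Cd8b1 and Plscr1 passed, where 0.704% of all genes were called higher. Zbtb46, Zbtb32 and the other listed markers of these lists did not. Markers outside the table have no value here, Sdc1 and Jchain among them, and the part of other cells in the isotype differences was not tested.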

How the data were processed

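The authors deposited 1 table of read counts per gene and of CPM in 7 libraries, per the file headers. It also holds the authors' log2 fold change, log2 mean CPM, likelihood ratio (a score), p-value and FDR, per the file headers. TopHat2 2.0.6, HTSeq 0.5.3p7, edgeR 3.03 and mm10 are named in the submitters' processing notes. No source used here gives the annotation, the strand setting or their roles.

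Effective library sizes were recovered as count divided by CPM. Counts of all 752 rows were tested with edgeR 4.0.16 (quasi-likelihood, two-sided, Benjamini-Hochberg) in R 4.3.3, with no filter; the step was first tested on simulated data. The SE is the log2 fold change divided by the square root of F. Intervals are Clopper-Pearson (95%), for ratios and pooled folds from the share of both counts. The 19734 genes the authors adjusted over were recovered from FDR and p. Named genes were the 7 constant genes, Batf, the 2 closest patterns for each, and up to 7 listed genes per gene list. The constant genes, the lists and the tests were chosen with earlier results of these data known. Alternatives were TMM, DESeq2 1.42.0, limma 3.58.1 with pseudocounts of 0.5 and 1 CPM, a mean CPM of at least 1, fewer wild-type libraries and each library left out. The list of the recombination machinery is not reported here.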

Additional observations from a re-analysis of the deposited data

How the results depend on the processing

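No result changed sign under any alternative run. Adjusted over the 19734 genes, Ighm (log2 fold change -0.44, edgeR adjusted p = 0.0568) and Ighe (-1.89, 0.0926) no longer passed. Ighg1 stayed just under the threshold at 0.0464. The authors' own test over as many genes gave an FDR of 0.0418 for Ighm and 0.0015 for Ighe, so both passed there. A minimum mean CPM of 1 removed Ighe and left 6 of the 7 genes. With Ighm reads as library size, the edgeR fit called Ighg1 (-0.62) and Ighe (-1.43), which the exact permutation test had not. That fit was adjusted only over the rows of the table, which had all been called by the authors, and the cause was not tested. Leaving out a library moved the fitted values most for genes with few reads. Igha ranged from -9.63 (without Batf KO replicate 1) to -6.27, and Ighg2c from -6.71 to -5.67 (also without Batf KO replicate 1). Ighe ranged from -2.07 to -1.60, and all 7 genes passed over the table whichever library was left out. On the log2(CPM + 1) scale of limma, which understates genes with few reads, the values were -0.44 for Ighm, -1.99 for Ighg3, -0.96 for Ighg1, -2.35 for Ighg2b, -1.60 for Ighg2c, -0.62 for Ighe and -1.99 for Igha, so the order of the differences among the genes changed. The share of Ighg1 in the downstream reads was higher in Batf KO by 32.9 to 38.7 percentage points when each library was left out; with 6 libraries the permutation test cannot pass, so no p is given. No paired analysis was possible because no number in the sample titles occurs in both groups, and the replicate numbers used here only name the libraries. Depth limits Ighg2c and Igha, with 2 reads each in Batf KO, and Ighe, with 21.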

Other observations

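Other immunoglobulin segments listed in the table were lower in Batf KO as well, by amounts near those of Ighm and Ighg1. Each had to differ to be listed, and segments outside the table have no value here. Of all tested genes, the authors list 1.86% as lower and 1.95% as higher. Of 4 annotated heavy chain joining segments, 2 are listed. The joining segments Ighj1 and Ighj3, which lie between the variable genes and Ighm, had a median log2 fold change of -0.93 and a summed level of 6.63 to 7.53 CPM in wild type and 2.98 to 4.94 CPM in Batf KO. Ighj1 passed over the 19734 genes (edgeR adjusted p = 0.0332), where 0.867% of all genes were called lower, and Ighj3 did not (0.164). Annotated kappa light chain segments were not counted. The 3 listed ones, Igkv6-23, Igkv17-127 and Igkj5, had log2 fold changes of -0.56, -0.44 and -0.42, and none passed over the 19734 genes. These genes were looked at after their values were seen. The kappa and lambda constant genes have no row in the table and no value here.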
